A study of Caenorhabditis elegans with 2 samples.

Results

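*ego-1*, *rrf-1*, *rrf-2* and *rrf-3* are the 4 genes for RNA-dependent RNA polymerases of the *Caenorhabditis elegans* small RNA pathways, and they are described here as places of FKH-3 binding. They were taken by gene symbol from 19985 protein-coding genes, and the family was chosen by the rank of the *ego-1* region in the lists of this study, which was already known. FKH-3 is a forkhead transcription factor. Its binding was mapped by ChIP-seq, the sequencing of immunoprecipitated chromatin, in whole worms of mixed sex at the young adult stage, 63 h after the worms were synchronised as starved L1 larvae. The strain was OP594, which carries the *unc-119*(tm4063) allele and the integrated transgene wgIs594. That transgene encodes FKH-3 fused at its C-terminus to GFP and FLAG, and anti-GFP antibody served for the precipitation. The sequence that drives the transgene is not given in the sources used here. Both biological replicates belong to a single group, so there is no treatment or genotype to compare, and the matched control was not analysed here.

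For each replicate and for their pool there was a list of 30000 regions, peaks and background together. The irreproducible discovery rate (IDR) threshold was met by 441 pooled regions, which hold ranks 1 to 441 of the pooled list. Regions were ordered by the authors' signal score, rank 1 being the highest, and scores were not compared between lists. A region was counted for a gene when its summit lay in the gene or within 2 kb of any of its transcript starts. Coordinates are on ce11. Read depth is unknown, since no counts accompany the regions. As whole worms were used, binding in few cells and weak binding in many cannot be told apart. The ranks helped to choose the genes, so they are described without a test.

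An RNA-dependent RNA polymerase copies an RNA template into complementary RNA. In *C. elegans* these enzymes amplify small interfering RNAs, which Argonaute proteins then carry to matching transcripts. EGO-1 works in the germ line, where it makes short antisense RNAs, among them those bound by the Argonaute CSR-1, and is needed for fertility. RRF-1 makes secondary small interfering RNAs in response to double-stranded RNA and is best known for its role in somatic tissues. RRF-3 acts with Dicer in the ERI complex, and worms that lack it respond more strongly to RNA interference. RRF-2 is the remaining paralogue of the family.

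Translation of the annotated coding sequences gave 1632 amino acids for EGO-1, 1601 for RRF-1, 1579 for RRF-2 and 1765 for RRF-3. RRF-1 and RRF-2 were the closest pair, with 68.5% identical residues over the aligned positions. EGO-1 was 60.8% identical to RRF-1 and 57.2% identical to RRF-2. RRF-3 stood apart, with 32.2 to 33.4% identity to the other members.

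The 3 windows at *rrf-3* are given to show what regions of background rank hold, beside 3 windows of the IDR list. The first of these, at *glb-27*, is among the regions closest in rank to that of *ego-1*, and the others are at the RNA interference genes *nrde-2* and *sid-5*. Each is 201 bases centred on the summit of the pooled region, on the strand of the gene, from the RefSeq sequence of the same assembly. The *rrf-3* windows, on the plus strand, are at chrII:8164508-8164708 (rank 7984), chrII:8165558-8165758 (rank 18049) and chrII:8162573-8162773 (rank 27507). The *glb-27* window (rank 29) is at chrII:8547065-8547265 on the minus strand, the *nrde-2* window (rank 316) at chrII:10246935-10247135 on the minus strand and the *sid-5* window (rank 123) at chrX:6903089-6903289 on the plus strand. Capitals mark any match, on either strand, to the searched words, which are spelled out with the sequence results.
rrf-3 rank 7984: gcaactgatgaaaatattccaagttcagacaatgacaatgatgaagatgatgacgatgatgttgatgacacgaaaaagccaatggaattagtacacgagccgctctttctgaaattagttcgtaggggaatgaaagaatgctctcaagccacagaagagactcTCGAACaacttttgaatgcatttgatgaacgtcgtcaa
rrf-3 rank 18049: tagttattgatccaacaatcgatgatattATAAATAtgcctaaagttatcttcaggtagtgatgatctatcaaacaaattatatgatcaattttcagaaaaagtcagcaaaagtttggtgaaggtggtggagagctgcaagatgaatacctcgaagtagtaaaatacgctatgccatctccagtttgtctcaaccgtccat
rrf-3 rank 27507: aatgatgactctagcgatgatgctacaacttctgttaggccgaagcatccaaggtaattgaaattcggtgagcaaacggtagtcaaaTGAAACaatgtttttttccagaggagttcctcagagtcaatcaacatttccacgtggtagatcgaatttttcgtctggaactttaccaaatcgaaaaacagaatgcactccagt
glb-27 rank 29: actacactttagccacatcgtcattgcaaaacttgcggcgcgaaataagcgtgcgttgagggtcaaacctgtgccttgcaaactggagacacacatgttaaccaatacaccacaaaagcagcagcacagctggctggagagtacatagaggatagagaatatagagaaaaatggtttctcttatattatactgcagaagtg
nrde-2 rank 316: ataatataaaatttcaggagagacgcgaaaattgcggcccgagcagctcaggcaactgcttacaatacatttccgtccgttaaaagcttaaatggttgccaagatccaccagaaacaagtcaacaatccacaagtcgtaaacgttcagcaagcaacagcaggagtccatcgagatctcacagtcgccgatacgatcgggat
sid-5 rank 123: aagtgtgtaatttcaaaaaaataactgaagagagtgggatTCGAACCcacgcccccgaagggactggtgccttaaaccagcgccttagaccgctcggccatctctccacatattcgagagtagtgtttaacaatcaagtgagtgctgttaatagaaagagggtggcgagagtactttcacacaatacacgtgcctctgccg
Each *rrf-3* window held 1 match: GTTCGA at rank 7984, the forkhead spelling ATAAATA at rank 18049 and GTTTCA at rank 27507. The *glb-27* and *nrde-2* windows held none. In the *sid-5* window GTTCGA and CGAACC overlapped in 1 run of capitals, inside a tRNA gene. Both words occur in the B box, an element within tRNA genes that recruits the RNA polymerase III machinery.

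Of the 4 polymerase genes, *ego-1* had an IDR region and the other 3 had none. Over all protein-coding genes, 2.8% had one by the same rule, and 3.78% of the 2064 genes with a counting window of 7 to 11 kb, near the 7998 to 9556 bp of the members. The *ego-1* region (chromosome I, 7656476 to 7656865) had rank 44 in the pooled list, rank 36 in replicate 1 and rank 43 in replicate 2. Both replicates placed it among their highest regions. A pooled region of that rank or higher was counted for 61 of the 19985 genes (0.305%). In replicate 1 a region at least as high as that of *ego-1* was counted for 48 genes (0.240%), and in replicate 2 for 60 (0.300%). *ego-1* was also the one member in the top 441 of replicate 1, against 2.78% of protein-coding genes, in the top 441 of replicate 2, against 2.77%, and in both, against 1.34%.

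The best pooled rank was 7984 for *rrf-3*, and 33.6% of all protein-coding genes had a region at least as high. For *rrf-1* it was 11549, reached by 43.6%, and for *rrf-2* it was 11574, reached by 43.7%. Within each replicate list the highest region counted for a gene need not be the pooled one. The highest rank counted for *rrf-3* was 12115 in replicate 1 and 10163 in replicate 2, and for *rrf-1* it was 8065 in replicate 1 and 13929 in replicate 2. For *rrf-2* it was 15606 in replicate 1 and 11374 in replicate 2. In replicate 1 of *rrf-3* and *rrf-2* and in replicate 2 of *rrf-1* these were other regions than the best pooled one. The replicate ranks of these 3 genes overlapped, so their order is not resolved, while the ranks of *ego-1* lay above them in every list. Any pooled region at all was counted for 4 of 4 members, against 72.8% of protein-coding genes. In the top 5000 of the pooled list *ego-1* was again the one member present, against 23.6% of all protein-coding genes and 32% of those with a window of 7 to 11 kb.

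**Figure D1:**
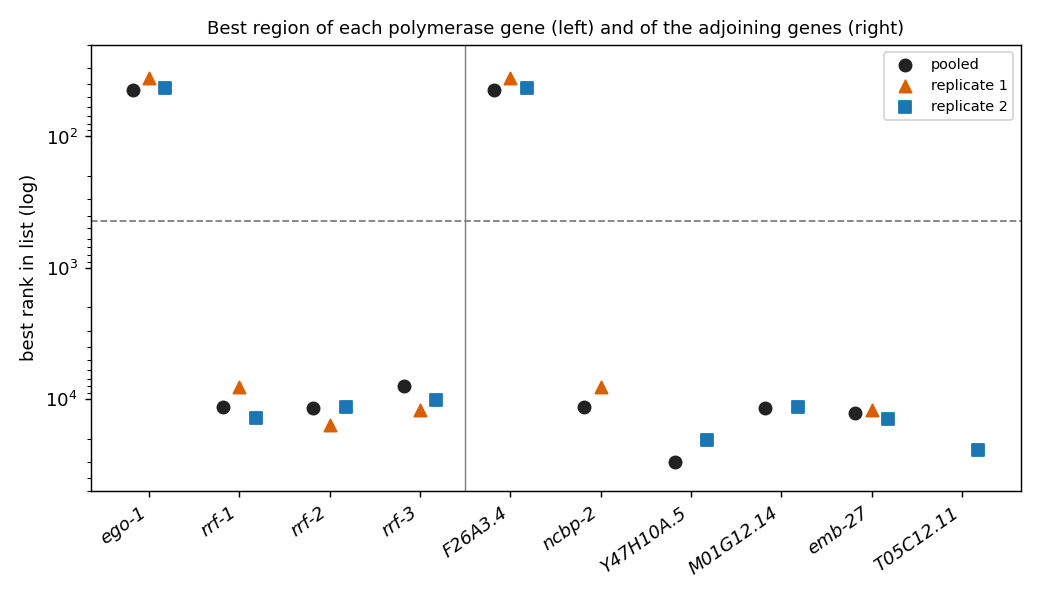
Best rank (log axis, high ranks at the top) of each polymerase gene and of the genes that adjoin them, in the pooled list (circles), replicate 1 (triangles) and replicate 2 (squares). The dashed line is rank 441, the last IDR region. The *ego-1* marks sit at 44, 36 and 43, *F26A3.4* carries the same region, and every mark of the other genes lies at rank 7984 or lower in the list; a missing mark means that no region was listed.

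**Figure D2:**
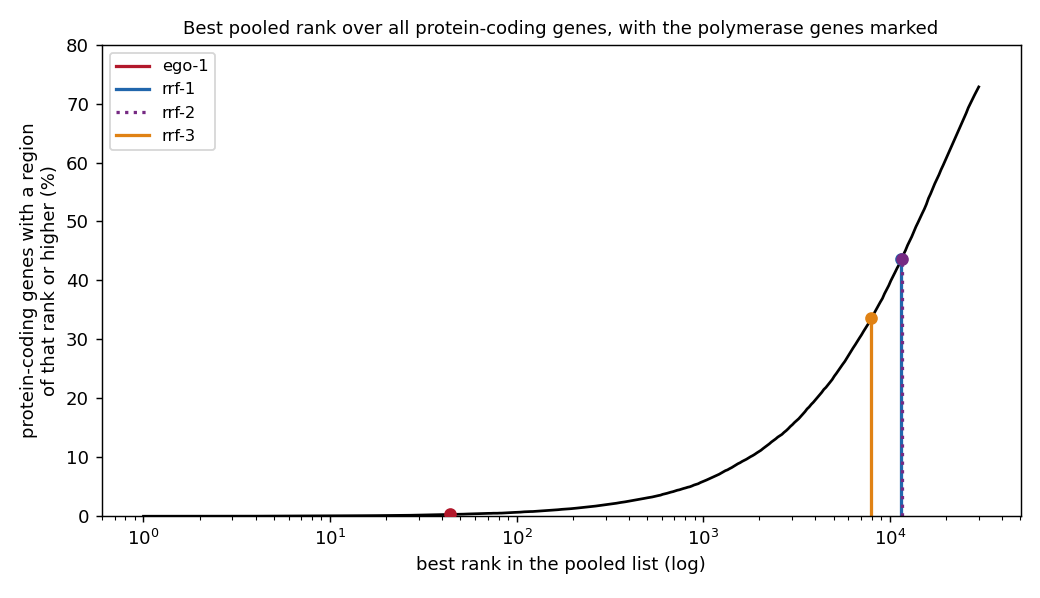
Share of all 19985 protein-coding genes (y axis, in percent) that had a pooled region of a given rank or higher (x axis, log). The vertical lines mark the 4 members, with *ego-1* at 0.305% and *rrf-3*, *rrf-1* and *rrf-2* between 33.6 and 43.7%.

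The authors' q-values come from the same lists and largely follow the scores at these regions, so they add no separate support to the ranks. The −log10 q of the *ego-1* region was 2.06 in the pooled list, 2.37 in replicate 1 and 2.06 in replicate 2. Each was the highest value of its list, a value held by 399 pooled regions, 353 regions of replicate 1 and 407 of replicate 2, so q orders nothing within that group. For the other members the best −log10 q in the pooled list was 0.293 (*rrf-3*), 0.198 (*rrf-1*) and 0.198 (*rrf-2*), which are q-values of 0.51 to 0.634.

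The *ego-1* gene (chromosome I, 7650341 to 7656338, minus strand) starts 639 bp from the end of *F26A3.4*, the next gene upstream, which lies on the same strand. The summit of the rank 44 region, at 7656671, lay in the space between them, 333 bp upstream of the *ego-1* start and 307 bp past the end of *F26A3.4*. In replicate 1 the summit lay 358 bp upstream of the *ego-1* start and in replicate 2 it lay 289 bp upstream, 69 bp apart. The nearest protein-coding start was that of *ego-1* in all lists. The nearest start of any kind was that of *21ur-14981*, a 21-base piRNA gene on the same strand at 7656454 to 7656474. The pooled region began 2 bp beyond that gene, and its summit lay 197 bp upstream of the piRNA start. piRNAs are small RNAs of the germ line bound by the Argonaute PRG-1. Their genes are often preceded by an element that contains GTTTCA, and this word was absent from the 60 bases before *21ur-14981*. The word did occur inside that piRNA gene, on the other strand, at 7656464 to 7656469. A piRNA gene was the nearest start for 10 of the 441 IDR regions (2.27%) and for 2.84% of all pooled regions.

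A further 5 pooled regions were counted for *ego-1*, of which 4 lay upstream, at -532 bp (rank 9500), -1004 bp (rank 3508), -1687 bp (rank 475) and -1890 bp (rank 7263). The first of these overlapped the rank 44 region. The other 3 had their summits inside *F26A3.4*, a protein-coding gene, and the regions of ranks 475 and 7263 were nearest its own start, at 266 and 63 bp downstream of it. The rank 475 region fell just outside the IDR list, with a score of 113.4 where the lowest IDR score was 115.3. It ranked 1280 in replicate 1 and 454 in replicate 2. Inside *ego-1* itself the pooled list had 1 region, of rank 29246, in exon 10. The 5 higher pooled regions were therefore all upstream of the gene.

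Just outside the 2 kb limit, at -2618 bp, the pooled list had a region of rank 1153. It ranked 1503 in replicate 1 and 912 in replicate 2. On the other side the next summit was 182 bp past the counted window, of rank 24702, before *rrf-1*. With 6 pooled regions in a window of 7998 bp, *ego-1* had 0.75 regions per kb, against a median of 0.25 over all protein-coding genes. At least 6 pooled regions were counted for 4.74% of protein-coding genes. The median window of all these genes was shorter, at 4181 bp, and no such share was taken for windows near 7998 bp. The lists gave *ego-1* 7 regions in replicate 1 and 6 in replicate 2.

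**Figure D3:**
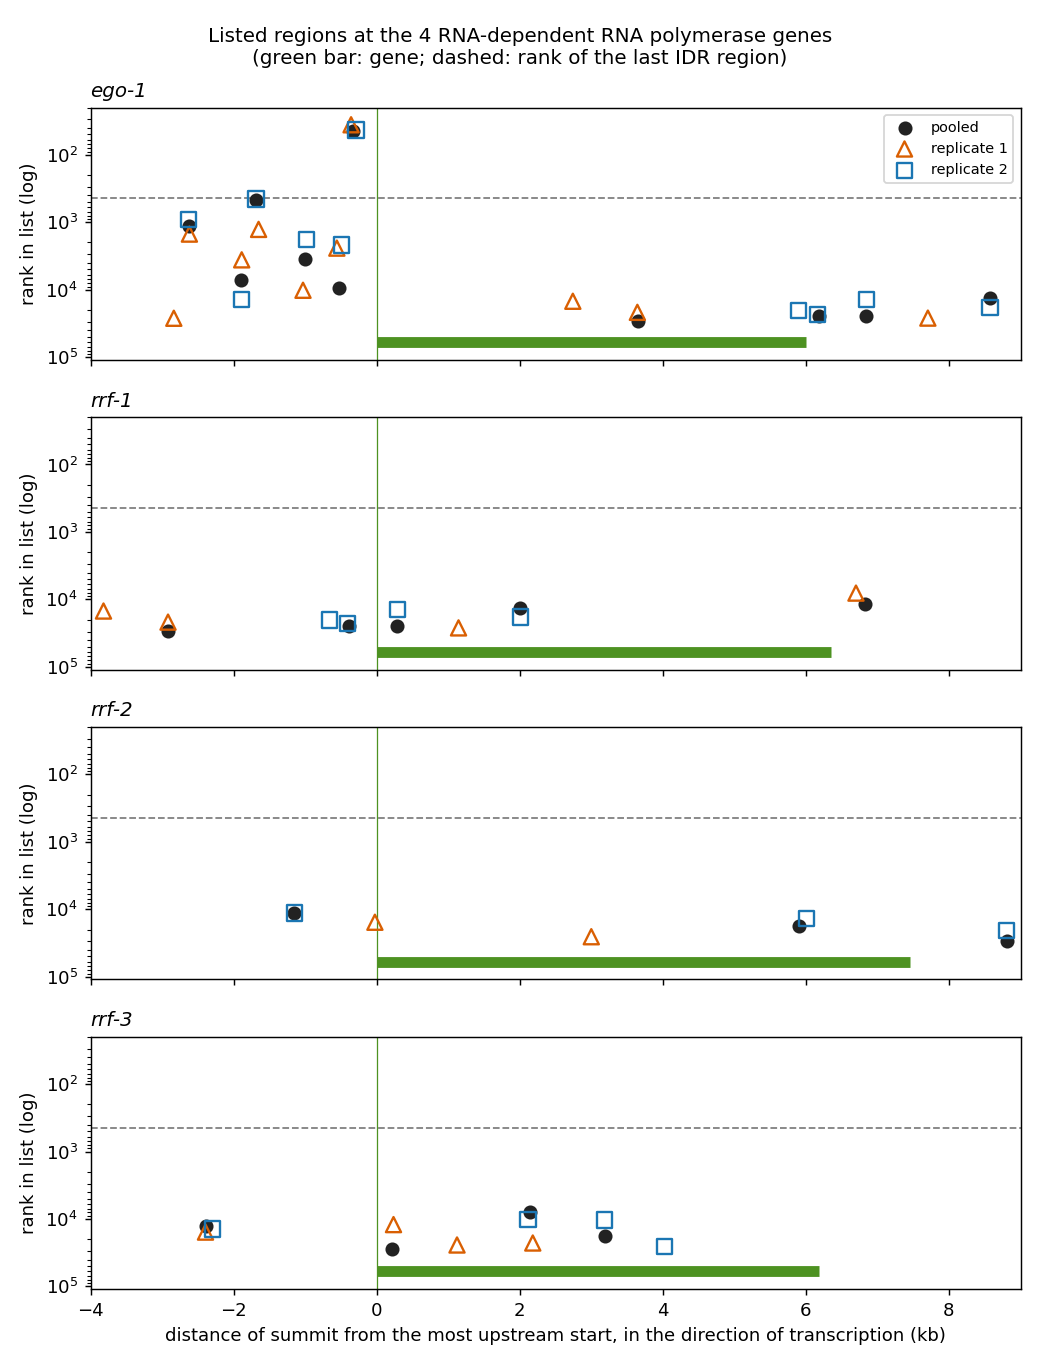
Rank (log axis, high ranks at the top) of each listed region around the 4 genes against the distance of its summit from the most upstream transcript start (x axis, kb, in the direction of transcription). Filled circles are pooled, open triangles replicate 1 and open squares replicate 2; the green bar is the gene and the dashed line rank 441. At *ego-1* the marks above the dashed line lie 289 to 358 bp upstream of the start, and at the other genes no mark reaches the line.

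The gene *rrf-1* (chromosome I, 7643431 to 7649777, minus strand) lies 563 bp downstream of *ego-1* and has 3 annotated starts. It had 4 pooled regions, 0.419 per kb. The best of them, of rank 11549, had its summit past the end of *rrf-1*, inside *ncbp-2* and 2 bp from a start of that gene, which codes for a subunit of the nuclear cap-binding complex. It was counted because 1 start of *rrf-1* is annotated 1277 bp from this summit, near the 3' end of the gene. The region of rank 13279 lay in a coding exon, and that of rank 25008 in coding exon 2, 70 bp before an internal start. The gap that separates *rrf-1* from *ego-1* held the region of rank 24702, 382 bp upstream of an *rrf-1* start. None of the 4 was found in both replicate lists. The rank 11549 region was found in replicate 1, at rank 8065, with the summit there 132 bp away. When summits had to lie within 100 bp, it was found in neither replicate. The other 3 were found in replicate 2, at ranks 18201, 23044 and 13929.

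The gene *rrf-2* (chromosome I, 12098664 to 12106112, minus strand) had 2 pooled regions, 0.212 per kb, against the median of 0.25. Its neighbours *M01G12.14*, upstream, and *Y47H10A.5*, downstream, lie on the same strand. The region of rank 11574 had its summit 1150 bp upstream, inside *M01G12.14*. It ranked 11374 in replicate 2, with the summit at the same base, and was not listed in replicate 1. The region of rank 17594 lay in a coding exon 5794 bp from a start and ranked 13682 in replicate 2. Replicate 1 instead listed regions at -25 bp, of rank 15606, and at 2884 bp, of rank 25591. The replicates therefore gave *rrf-2* regions at different places.

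The gene *rrf-3* (chromosome II, 8162465 to 8168651, plus strand) had 3 pooled regions, 0.366 per kb, all inside the gene. The region of rank 7984 lay 2143 bp from the start, in exon 6, and ranked 22712 in replicate 1 and 10163 in replicate 2. A second region, of rank 18049, lay in exon 9 and was listed in replicate 2 alone, at rank 10342. The one of rank 27507, at 208 bp in an intron, was listed in replicate 1 alone, with rank 12115. The starts of *rrf-3* and of *emb-27*, a subunit of the anaphase-promoting complex transcribed away from it, are 295 bp apart. No summit of any list lay between them, and the closest pooled summit upstream, of rank 12719, was 2393 bp from the *rrf-3* start. *T05C12.11*, which overlaps the 3' end of *rrf-3* on the other strand, had no pooled region.

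Of the 6 pooled regions at *ego-1*, 5 had their summit inside a region of both replicate lists, and the region in exon 10 was missing from replicate 2. In replicate 1 the regions of ranks 44 and 9500 both matched the region of rank 36. When summits had to lie within 100 bp, the rank 9500 region instead matched the replicate 1 region of rank 2426. Of the other members' pooled regions, 1 of 3 at *rrf-3*, 0 of 4 at *rrf-1* and 0 of 2 at *rrf-2* were found in both. Over the whole pooled list the share was 39.8%, with 87.4% in the top 5000 and 30.3% below it. Rank and recurrence move together in these lists, and neighbouring regions at *ego-1* overlap, so the counts are not independent.

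Of the 44 regions with the rank of the *ego-1* region or higher, 27 had a tRNA, snoRNA or snRNA gene within 100 bp of the summit. The *ego-1* region was among the 17 that did not, and among 4 of those with the summit in no annotated gene. A promoter window was set at 500 bp before a protein-coding start and 100 bp after it. It held the summits of 91 IDR regions, of which 64 had no such RNA gene within 100 bp, and the *ego-1* region stood 6th highest among these 64. The 5 above it were nearest the coding starts of *kel-3*, *rpl-3*, *kin-14*, *wwp-1* and *F44E5.4*. At *wwp-1* the summit was on a gene annotated as ncRNA. Genes annotated as ncRNA or miRNA were outside the class searched. Some of the 17 regions had one within 100 bp, such as those of ranks 8 and 22. The share with a tRNA, snoRNA or snRNA gene was not taken over all IDR regions, so the 27 of 44 have no background beside them.

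The genes with the most similar ranks were sought among 552 other protein-coding genes with an IDR region, by the mean absolute difference in log2 rank over the pooled list and the 2 replicate lists. *F26A3.4* came first at 0, because its best region is the same one. *decr-1.2* and *glb-27* followed at 0.287, sharing a region of pooled rank 29, rank 34 in replicate 1 and rank 38 in replicate 2, with a summit near the snoRNA gene *W01C9.6*. *T26E3.7* was next at 0.302, with rank 58 in the pooled list, 44 in replicate 1 and 50 in replicate 2. *D1046.2* and *cfim-2* were tied at 0.304, at the snoRNA gene *D1046.6*. Among these genes *T26E3.7* was the one besides *F26A3.4* whose region had no tRNA, snoRNA or snRNA gene within 100 bp. The measure rests on 2 replicates and the list made from them.

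Sequence at the summits was compared over 201-bp windows. GC content at the *ego-1* region was 41.8%, against medians of 44.8% for IDR regions and 41.3% for all pooled regions. In a 501-bp window it was 34.5%, against 41.1% for IDR regions and 39.9% for all pooled regions. The best pooled regions of *rrf-1* and *rrf-3* had 39.8% GC in 201 bp and that of *rrf-2* had 47.8%. The GC content of the *ego-1* region was thus between the medians at its summit and below both of them in the wider window.

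The forkhead motif was searched as 4 spellings on both strands: ATAAACA, then the same word with T in place of its C, which is ATAAATA, and the pair that begins with G, which is GTAAACA and also GTAAATA. None was found at the *ego-1* region, in the 201-bp or in the 501-bp window. At least 1 of them was found in 53 of 441 IDR windows and in 13.7% of all pooled windows of 201 bp, and in 38.1% of IDR windows and 32.7% of all pooled windows of 501 bp. Over the 15 pooled regions at the members, 5 held such a word within 201 bp. These were the *ego-1* regions of ranks 7263 and 29246, the *rrf-1* regions of ranks 24702 and 25008 and the *rrf-3* region of rank 18049. Within 501 bp, 11 of the 15 held one (73.3%), against the 32.7% of all pooled windows. Some of these windows overlap, and those of ranks 475 and 7263 at *ego-1* share 1 match, so the 15 are not independent. Their median GC content in 501 bp was 36.9%, against 39.9% for all pooled regions, and the 4 spellings are rich in A and T. Neither the difference in share nor the part of GC content in it was tested. The forkhead spelling GTAAACA was in none of the 15, against 2.14% of all pooled windows.

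The other words, of 6 bases each, were also searched on both strands. ATGCGC was in none of the 15 regions, against 4.30% of all pooled windows. CGCGCA was in none either, against 4.77%, nor was CGAACC, against 5.30%. GTTCGA, which overlaps CGAACC where both are read across a B box, was in 2, the *rrf-1* region of rank 13279 and the *rrf-3* region of rank 7984, against 8.71%. GTTTCA was in 1, the *rrf-3* region of rank 27507, against 15.4%. In windows of 501 bp the order turned for GTTTCA, with 8 of 15 (53.3%) against 35.9% of all pooled windows. The windows of ranks 3508 and 9500 at *ego-1* share 1 GTTTCA match, so these counts are not independent. GTTCGA was in 5 of 15 windows of 501 bp (33.3%) against 19.1%. The remaining 3 words of this group were again in none of the 15. In the order named above, their shares of all pooled windows of 501 bp were 9.39%, 9.71% and 11.4%. With shares this low and only 15 windows, finding none does not show a depletion, and none was tested. A match is a description of the letters and not of a binding site.

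Reads from close relatives could be shared between members, so words of 36 bases were counted. Of those in *ego-1*, 1.34% recurred elsewhere in the genome, and of those in *rrf-1*, 1.27%. In each gene 80 of the words also occurred in another member. In *rrf-2* and *rrf-3* the share was 0%. None of the 166 words in the 201-bp window of any of the 15 pooled regions recurred, whereas 30.4% of IDR windows held a recurring word.

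The other genes of the small RNA pathways were taken from 8 lists of 97 names, of which 92 matched a protein-coding symbol. Of these 92, 3 had an IDR region (3.26%), against 2.8% of all protein-coding genes and 3.11% of those with a window of 5 to 7 kb, so the share was near the background. A region in the pooled top 1000 was found for 9 (9.78%), against 5.93%, and in the top 5000 for 34 (37.0%), against 23.6%. The counting windows of these genes were longer, with a median of 5446.5 bp against 4181 bp, and 27.1% of all genes with a window of 5 to 7 kb had a region in the top 5000. The part of window length in the difference was not tested. The median best rank was 6157.5 for the 84 listed pathway genes and 8922 for all listed protein-coding genes.

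The 3 genes with an IDR region were *snpc-4*, *sid-5* and *nrde-2*. SNPC-4, a DNA-binding protein that transcription of snRNA and piRNA genes requires, is encoded by the gene that held the region of rank 1 in all lists, inside a coding exon. *sid-5*, needed for the spread of silencing between cells, had the region of rank 123, but its summit lay 1532 bp upstream at a tRNA gene. *nrde-2*, a nuclear RNA interference factor, had the region of rank 316, 603 bp from its start in a coding exon, and its best ranks were 281 in replicate 1 and 550 in replicate 2. In none of the 3 genes was the region upstream and within 500 bp of the start, where that of *ego-1* was.

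Among the partners of the polymerases, 8 of 18 had a region in the top 5000 (44.4%), against 23.6% of all protein-coding genes. The share was 27.1% for all genes with a window of 5 to 7 kb and 32% for those of 7 to 11 kb. The median window of these partners was 6864.5 bp. None of the 18 had an IDR region, against 2.8% of all protein-coding genes. For *drh-3*, the helicase that works with EGO-1 and RRF-1, the best pooled rank was 2585, and the summit was nearer the start of *D2005.7*. For *ekl-1*, a Tudor protein of the same complexes, it was 12999, while its best ranks were 1565 in replicate 1 and 7816 in replicate 2. For *csr-1*, the Argonaute that binds EGO-1 products, it was 1256, in a coding exon 1580 bp from the start. For *dcr-1*, which codes for Dicer, it was 13216. *eri-1*, an exonuclease of the ERI pathway in which RRF-3 acts, had rank 580, at 49 bp from its own start, with best ranks of 208 in replicate 1 and 1776 in replicate 2. *eri-5*, a Tudor protein of the ERI complex, had rank 672 and *rde-4*, a double-stranded RNA binding protein that works with Dicer, rank 983, but these summits were nearest the coding starts of *trap-3* and *cts-1*.

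The other pathway genes in the top 1000 were *pgl-1*, a germ granule component, at rank 466, the Argonaute *wago-4* at 485 and *znfx-1*, a helicase of germ granules, at 857. The *pgl-1* summit lay in the 3'UTR and ranks differed between replicates, at 4547 in replicate 1 and 393 in replicate 2. The *wago-4* summit lay in a coding exon 3135 bp from the *wago-4* start and was nearest the coding start of *F58G1.8*. The best ranks of *wago-4* were 220 in replicate 1 and 2090 in replicate 2. The *znfx-1* summit lay 1836 bp upstream, within 100 bp of a tRNA gene. The shares by list stand beside 23.6% of all protein-coding genes, 27.1% of those with a window of 5 to 7 kb and 32% at 7 to 11 kb. The top 5000 held 8 of 20 Argonautes (40%), 8 of 15 germ granule genes (53.3%), 3 of 7 nuclear RNA interference genes (42.9%) and 2 of 9 Mutator genes (22.2%). It held 2 of 5 systemic RNA interference genes, 2 of 4 microRNA processing genes and 1 of 14 piRNA biogenesis genes (7.14%). The lists are short and their windows differ in length, and no difference from the background was tested.

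**Figure D4:**
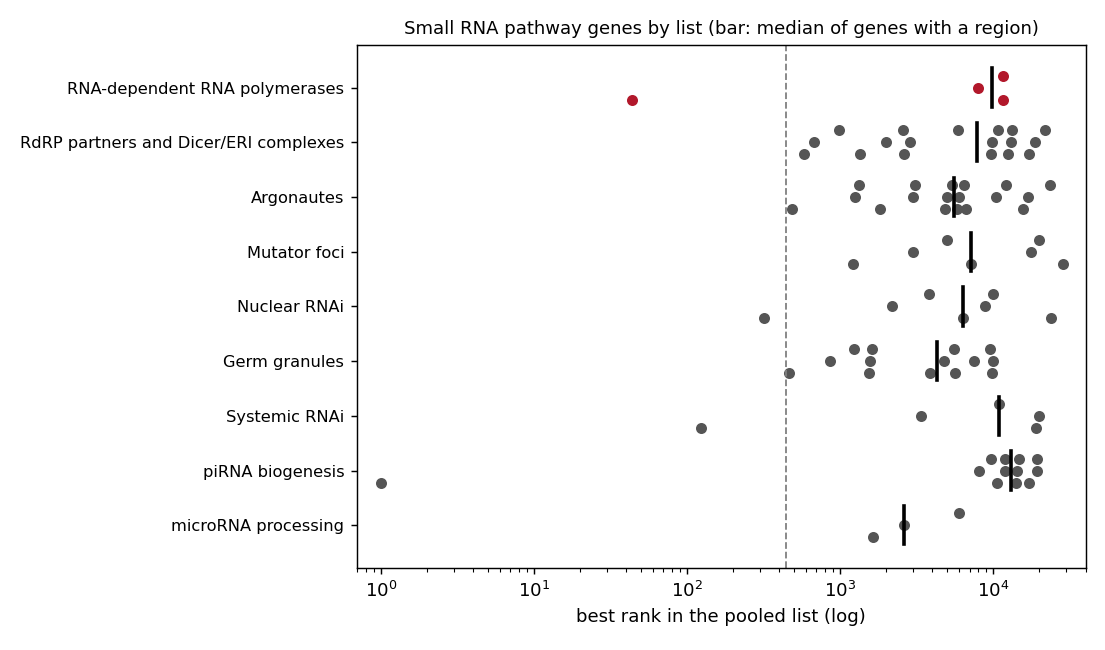
Best pooled rank (log axis) of the 4 polymerase genes (red, top row) and of the small RNA pathway genes with a listed region, by list (grey points, spread vertically for legibility; black bars are medians). The dashed line is rank 441. Points left of it are *ego-1* at 44, *nrde-2* at 316, *sid-5* at 123 and *snpc-4* at 1.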

How the data were processed

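ChIP-seq regions were deposited in narrowPeak layout on ce11 for 2 replicates and their pool. The signal score in these lists is the authors' own, on an unstated scale, and the authors' −log10 of the q-value stands beside it. Neither peak caller nor aligner is named in the sources used here. The ce10 lists were not used here. Depth, and the precision it gives, cannot be known from lists without counts.

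Summits were assigned to Ensembl 115 gene models of WBcel235, the assembly of ce11, with pandas 2.3.3, numpy 2.4.6 and Biopython 1.88 under Python 3.11.15, and plotted with matplotlib 3.10.9. Windows were each gene and 2 kb around each start. The lookup of summits in these windows was tested on simulated summits, which does not check the gene models, the coordinates or the windows themselves. Protein identity came from global alignment (BLOSUM62, gap penalties 11 and 1). No hypothesis test was made. The members, gene lists, words and windows were chosen with earlier results of these data known. Named genes were the members, adjoining genes, genes at their summits in the top 5000, the 5 genes most like *ego-1*, pathway genes in the IDR list and up to 8 more in the top 1000. GTTTCA, windows of 7 to 11 and 5 to 7 kb, the promoter window and its genes, the tied gene *cfim-2*, and the values of *drh-3*, *ekl-1*, *csr-1* and *dcr-1* were added after values were seen.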

Additional observations from a re-analysis of the deposited data

How the results depend on the processing

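Counting each region only for the nearest start of any gene type gave 0 members with an IDR region and 0 in the pooled top 5000, because the starts of the piRNA gene *21ur-14981* (ranks 44 and 3508) and of *F26A3.4* (rank 475) are nearer the summits than that of *ego-1*. That setting therefore gives *ego-1* no rank. With the nearest protein-coding start, a setting chosen after seeing the data, *ego-1* kept rank 44. Leaving out each replicate leaves the list of the other, in which *ego-1* had ranks 36 to 43. In the whole pooled list all 4 members had a region.

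Of the 92 pathway genes, those with an IDR region numbered 0 within 500 bp of starts and 0 from 1000 bp upstream to 200 bp downstream. They numbered 12 within 5 kb and 7 by any overlap. With a replicate left out there is no IDR list, and 3 to 5 had a region in the top 441 of the remaining replicate. Of all 19985 protein-coding genes, 144 had one within 500 bp of starts and 177 from 1000 bp upstream to 200 bp downstream. Those with one numbered 1118 within 5 kb and 617 by any overlap. In the top 441 of the remaining replicate, 553 to 556 had a region, the replicate values given above. By the nearest start of any type the genes with an IDR region numbered 197, and with the 220 highest IDR regions 287. Of the pathway genes, 2 had one under each of these settings. The windows and counting rules themselves set these numbers. The pathway share near the background belongs to summits counted in the 2 kb window. By any overlap (7 of 92 against 617 of 19985) and within 5 kb (12 against 1118) the pathway share was higher than that of all genes. In the narrower windows it was 0, and lower. No difference under any setting was tested. Of 44 values of the main results under these and the remaining settings, 30 were classed as unchanged and 14 as moved. Of 48 other values, 34 were classed as unchanged and 14 as moved. Some values classed as moved are those of a single replicate, such as 0.875 regions per kb at *ego-1* in replicate 1. No paired analysis was possible because all samples belong to a single group. What depth limits cannot be stated without counts.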
